A study of Homo sapiens with 6 samples.

Results

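The transcripts described here belong to the cellular response to low oxygen: the hypoxia-inducible factor (HIF) genes and their regulators, the enzymes of glycolysis, and other known HIF targets. The list named 35 genes, of 21357 that the array's probe table names. Where several probe sets name a gene, the brightest by its mean over the 6 arrays was read. This gave a value for 34 of the 35, that is 8 HIF genes and regulators, 14 glycolysis genes and 12 of 13 other targets; CA9 was not analysed here. The cells were MOLM-14, a line grown from human acute myeloid leukaemia with the MLL-AF9 rearrangement. The CA group received cortistatin A (CA), an inhibitor of the Mediator kinases CDK8 and CDK19, at 25 nM for 3 h, and the DMSO group received dimethyl sulfoxide (DMSO), the solvent, for 3 h. Wells were plated in triplicate, so there were 3 samples per group and 1 Affymetrix U133 Plus 2.0 array per sample. The sources used here do not give the oxygen level. No label ties the samples to separate cultures, so the p-values reflect only the spread among these samples, possibly a technical one. RNA came from the whole culture, so fewer cells of a kind and less RNA per cell cannot be told apart.

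HIF is a pair of proteins, an oxygen-regulated alpha subunit (HIF1A or EPAS1) and the stable partner ARNT. With oxygen, the EGLN prolyl hydroxylases mark the alpha subunit for capture by VHL and destruction, and the asparaginyl hydroxylase HIF1AN keeps it from the coactivators EP300 and CREBBP. When oxygen is low the pair accumulates and binds the hypoxia response element of genes for glucose use, blood vessel growth and mitochondrial turnover. CDK8 is known as a coactivator of HIF1A in other human cells, and leukaemia cells are known for active glycolysis. The comparison of CA with DMSO asks how the transcripts of this pathway stood after a short exposure to the kinase inhibitor.

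The 20293 probe sets tested had median log2 values of 6.02 to 6.08 per array, with array-to-array correlations of 0.997 to 0.999. With so few arrays, their number limits how precise a change can be. The second principal component (29.1% of the variance) had the CA arrays at 2.40 to 12.9 and the DMSO arrays at -11.7 to -3.63. On the first (31.6%), the array of CA replicate 3 stood apart (19.7, against -8.21 to 1.22 for the other arrays). Leaving it out moved the log2 change of 17 of the 34 members by over 1.5 times or turned its sign, against 13 to 15 members for each other array, and none of the moved members was past the threshold. Of 11 markers of leukaemic and monocytic cells, 7 were above the array medians on all arrays, among them FLT3 and LYZ, and 4 were below them. All 5 markers of T and B cells were below the medians on all arrays. Of 5 erythroid markers, 1 was above and 3 were below on all arrays. Of 6 epithelial and fibroblast markers, 2 were above and 3 were below. The log2 values of the T and B cell markers summed to between 23.3 and 24.7 in CA, and to between 23.9 and 24.1 in DMSO. The erythroid sums did not overlap, at 30.89 to 31.32 in CA and 30.69 to 30.87 in DMSO. The sums of the other lists overlapped.

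The core of the hypoxia response element was searched as the letters ACGTG or GCGTG on either strand. The search used the RefSeq promoter windows (build GRCh38.p14, 250 bases before to 50 after an annotated start) of 31 of the 35 listed genes. NDRG1 and BNIP3L were left out for their genomic location, whether or not they had a window, so the shares do not cover them. VHL and VEGFA were not among the genes searched either. Of the 47 windows of the 31 genes, 34 (72.3%) held either form, against 48.4% of all 35116 windows. ACGTG was in 21 (44.7%), against 21.4% of all windows. The genes were listed for their known place in the HIF pathway, so these shares are not a test. A gene with several windows counted more than once, also where its windows overlap. Base composition was not compared. ACGTG also lies inside the E-box CACGTG, which is counted once on each strand; CACGTG was in 9 of the 47 windows (19.1%), against 7.26% of all windows. A match is a description of the letters and not a bound site. The windows shown are those of the member that passed the test (ADM), of a target whose CA arrays were all above DMSO without passing (ANKRD37), and of LDHA and PGK1, whose promoters are textbook HIF targets and whose transcripts had narrow intervals around no change. All 4 are on the plus strand, written 5′ to 3′, with the motif letters in capitals.
ADM, chr11:10304823-10305122: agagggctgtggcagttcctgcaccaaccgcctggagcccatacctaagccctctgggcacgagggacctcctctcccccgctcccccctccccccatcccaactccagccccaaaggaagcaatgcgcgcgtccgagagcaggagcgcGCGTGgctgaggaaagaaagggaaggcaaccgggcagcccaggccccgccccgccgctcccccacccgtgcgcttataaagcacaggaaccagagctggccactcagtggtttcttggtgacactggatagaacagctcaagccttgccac
ANKRD37, chr4:185396591-185396890: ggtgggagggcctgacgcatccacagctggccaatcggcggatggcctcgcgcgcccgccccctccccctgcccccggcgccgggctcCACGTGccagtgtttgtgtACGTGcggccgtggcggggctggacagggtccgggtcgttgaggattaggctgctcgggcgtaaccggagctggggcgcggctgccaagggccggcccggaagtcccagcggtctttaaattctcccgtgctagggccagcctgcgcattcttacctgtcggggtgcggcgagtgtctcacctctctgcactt
LDHA, first of 2 windows, chr11:18394313-18394612: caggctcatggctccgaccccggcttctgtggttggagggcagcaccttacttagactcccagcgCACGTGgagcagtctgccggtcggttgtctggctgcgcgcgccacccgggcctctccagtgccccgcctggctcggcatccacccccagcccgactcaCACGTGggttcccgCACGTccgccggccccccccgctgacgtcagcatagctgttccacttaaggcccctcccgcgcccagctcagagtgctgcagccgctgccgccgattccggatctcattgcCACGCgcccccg
PGK1, chrX:78103998-78104297: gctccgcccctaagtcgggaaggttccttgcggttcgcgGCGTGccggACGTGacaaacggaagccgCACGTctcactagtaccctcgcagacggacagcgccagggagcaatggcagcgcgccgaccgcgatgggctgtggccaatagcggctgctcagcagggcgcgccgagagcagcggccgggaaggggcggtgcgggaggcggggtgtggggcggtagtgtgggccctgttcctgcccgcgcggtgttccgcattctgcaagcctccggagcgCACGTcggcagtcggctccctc
The ADM window held a single GCGTG, which begins 101 bases before the start, and no ACGTG. ANKRD37 had an E-box 162 bases before the start and a further ACGTG 143 bases before it. LDHA had E-boxes 185 and 87 bases before the start, and further ACGTG and GCGTG letters. PGK1 had ACGTG 202 bases before the start on the plus strand and 183 bases before it on the minus strand, among others.

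Of the 34 measured members, ADM alone passed at an adjusted p under 0.05 in limma, adjusted by Benjamini-Hochberg over all 20293 probe sets; it rose and none fell. That is 2.94% of the members, beside 0.892% of all probe sets tested (0.828% higher and 0.0641% lower in CA). With no adjustment, 7 members (20.6%) had a limma p under 0.05, beside 11.6% of all. Of these, 5 were higher in CA and 2 lower, beside 7.09% and 4.49% of all. The CA and DMSO arrays did not overlap for 10 members (29.4%), beside 19.4% of all. CA was above DMSO in 6 of these and below it in 4, beside 11.9% and 7.49% of all. At the other end, the 95% confidence interval of 24 members (70.6%) lay within a 1.2-fold change in either direction, which held for 52.4% of all probe sets. The median standard error of the log2 change was 0.054 over the members and 0.071 over all probe sets. The log2 change was above 0 for 20 members (58.8%), beside 51.8% of all, and its median was 0.016 over the members and 0.0041 over all. The count of calls depends on the fit. With an intensity trend and a robust spread 3 members passed, with NDRG1 also higher and HIF1A lower, against 567 of all probe sets; with the replicate number as a block none did, against 6 of all.

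**Figure D1:**
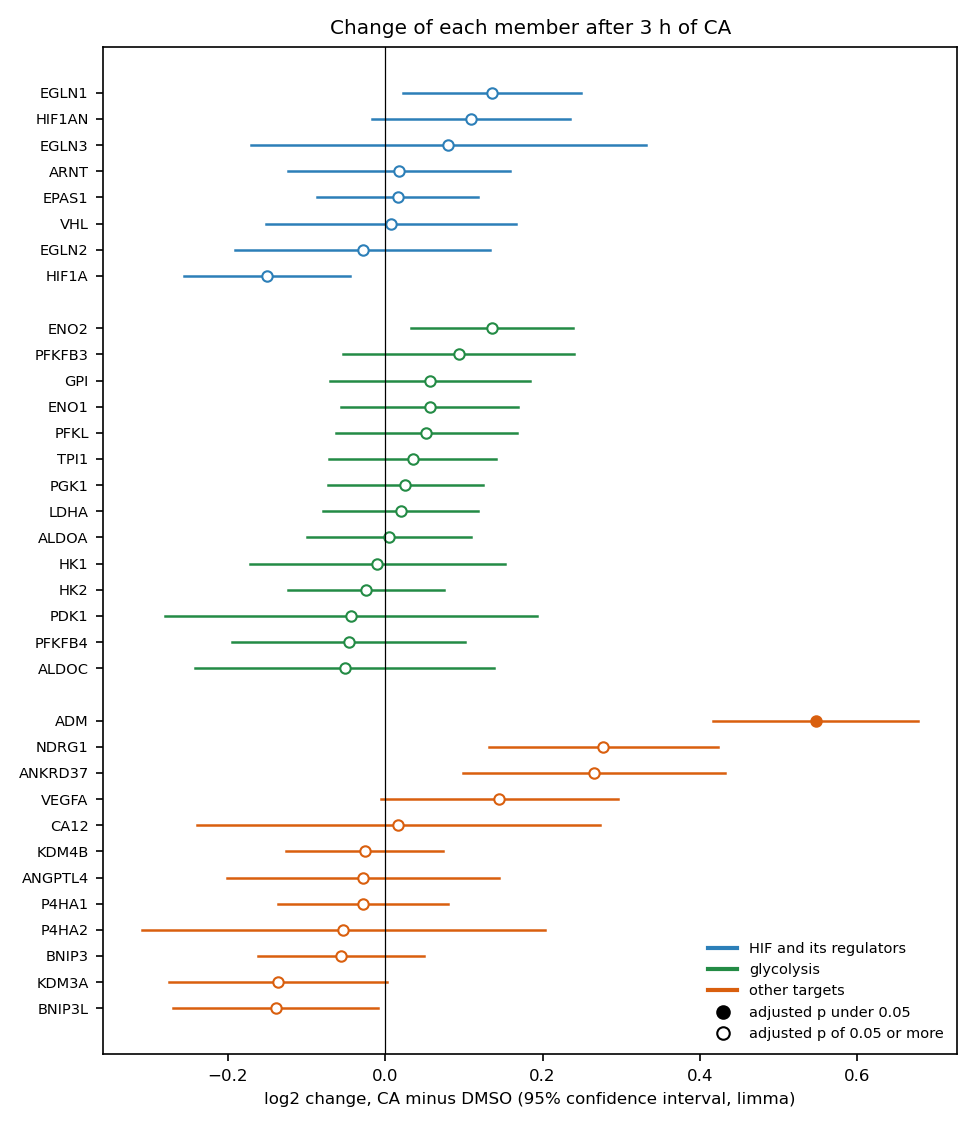
Log2 change of each measured member, CA minus DMSO, with limma's 95% confidence interval, ordered by size within the HIF genes and regulators (top), glycolysis (middle) and other targets (bottom). Filled points passed at an adjusted p under 0.05, which ADM alone did; 13 of the 14 glycolysis intervals stay within a 1.2-fold change.

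Among the 8 HIF genes and regulators, none passed the threshold, beside 0.892% of all probe sets. HIF1A, the alpha subunit that drives the glycolytic targets, had log2 values of 11.03, 11.06 and 11.00 on the CA arrays, against 11.19, 11.21 and 11.14 on the DMSO arrays. All 3 CA arrays were below all 3 DMSO arrays. The log2 change was -0.15 (95% confidence interval -0.26 to -0.044, adjusted p = 0.272), the lowest of all 34 members. HIF1A passed with an intensity trend and a robust spread (limma adjusted p = 0.0204). EPAS1, the second alpha subunit, had log2 values of 9.26, 9.27 and 9.27 on the CA arrays, against 9.21, 9.27 and 9.28 on the DMSO arrays. Its groups overlapped, and its log2 change was 0.016 (95% confidence interval -0.086 to 0.12, adjusted p = 0.919). ARNT, the partner of both, had a log2 change of 0.017 (95% confidence interval -0.12 to 0.16, adjusted p = 0.938), an interval that reaches 1.12-fold at the probe set used. Of its 6 other probe sets, 4 lay between -0.11 and -0.056, and the dimmest 2 gave 0.061 and 0.14.

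The prolyl hydroxylases had log2 changes of both signs, none past the threshold. EGLN1, the main oxygen sensor for HIF1A in most cells, had log2 values of 11.22, 11.23 and 11.13 on the CA arrays, against 11.08, 11.05 and 11.05 on the DMSO arrays. The CA arrays were all above the DMSO arrays, and the log2 change was 0.14 (95% confidence interval 0.023 to 0.25, adjusted p = 0.349). EGLN2 had a log2 change of -0.028 (95% confidence interval -0.19 to 0.13, adjusted p = 0.907); its probe set also lists the read-through transcript of RAB4B and EGLN2, so the value cannot be given to EGLN2 alone. EGLN3, itself a HIF target, was below the array medians on all arrays, with log2 values of 4.95, 4.89 and 5.28 on the CA arrays, against 4.96, 4.94 and 4.99 on the DMSO arrays. CA replicate 3 was its highest array, and without that array its log2 change was -0.041. HIF1AN had a log2 change of 0.11 (95% confidence interval -0.017 to 0.23, adjusted p = 0.491). VHL, the subunit that recognises hydroxylated HIF, had log2 values of 7.03, 6.95 and 6.88 on the CA arrays, against 6.94, 7.04 and 6.86 on the DMSO arrays. Its groups overlapped throughout, with a log2 change of 0.0073 (95% confidence interval -0.15 to 0.17, adjusted p = 0.980).

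None of the 14 glycolysis genes passed the threshold, beside 0.892% of all probe sets. Their log2 changes ran from -0.051 to 0.14 with a median of 0.023, 9 above 0 and 5 below. The median size of the change, whatever its sign, was 0.045 here and 0.068 over all probe sets, and 13 of the 14 intervals stayed within 1.2-fold. The median standard error was also lower, at 0.047 here and 0.071 over all. The exception was PDK1, which blocks the entry of pyruvate into the citric acid cycle. Its log2 values were 8.57, 8.77 and 8.48 on the CA arrays, against 8.70, 8.75 and 8.50 on the DMSO arrays, a wide spread in both groups, and its change was -0.043 (95% confidence interval -0.28 to 0.19, adjusted p = 0.903).

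The abundant enzymes were even across the arrays at the probe sets used. LDHA, which turns pyruvate into lactate, had log2 values of 13.57, 13.61 and 13.59 on the CA arrays, against 13.55, 13.59 and 13.56 on the DMSO arrays. PGK1, the first ATP-forming enzyme of the pathway, had 13.06, 13.09 and 13.09 on the CA arrays, against 13.03, 13.05 and 13.08 on the DMSO arrays. Both sets of arrays overlapped. The log2 change was 0.020 (95% confidence interval -0.079 to 0.12, adjusted p = 0.892) for LDHA and 0.026 (95% confidence interval -0.073 to 0.12, adjusted p = 0.852) for PGK1. ALDOA, an aldolase, had log2 values of 13.19, 13.17 and 13.25 on the CA arrays, against 13.20, 13.18 and 13.21 on the DMSO arrays. Its log2 change was 0.0048 (95% confidence interval -0.099 to 0.11, adjusted p = 0.980), close to 0. The enolase ENO1 and the isomerases TPI1 and GPI had log2 changes of 0.057, 0.035 and 0.057, with adjusted p-values of 0.690, 0.803 and 0.723. Other probe sets gave log2 changes of -0.058 to 0.063 for PGK1, the highest without overlap of the groups, and -0.12 to 0.21 for ENO1. Without CA replicate 3 the log2 change was 0.016 for TPI1 and 0.033 for GPI.

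The enzymes that set the flux into glycolysis gave no call either. HK2, the hexokinase that HIF1A is known to induce, had log2 values of 10.03, 10.04 and 10.06 on the CA arrays, against 10.04, 10.08 and 10.09 on the DMSO arrays. Its change was -0.024 (95% confidence interval -0.12 to 0.075, adjusted p = 0.864), and that of HK1 was -0.0098 (95% confidence interval -0.17 to 0.15, adjusted p = 0.971). PFKL, a subunit of phosphofructokinase, had log2 values of 8.13, 8.14 and 8.24 on the CA arrays, against 8.12, 8.11 and 8.12 on the DMSO arrays. The groups did not overlap, though the nearest CA array was only just above DMSO, and CA replicate 3 lay apart. The log2 change was 0.053 (95% confidence interval -0.063 to 0.17, adjusted p = 0.718), and 0.017 without that array. PFKFB3 and PFKFB4 control the level of an activator of phosphofructokinase. They had log2 changes of 0.093 (95% confidence interval -0.053 to 0.24, adjusted p = 0.615) and -0.046 (95% confidence interval -0.19 to 0.10, adjusted p = 0.813), of opposite sign, and 0.14 and -0.086 without CA replicate 3.

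ENO2 and ALDOC are isozymes best known from nerve tissue. ENO2 had log2 values of 3.16, 3.16 and 3.15 on the CA arrays, against 3.05, 3.03 and 2.97 on the DMSO arrays. The groups did not overlap, and the change of 0.14 (95% confidence interval 0.033 to 0.24, adjusted p = 0.307) was the highest of the glycolysis genes, but its values lay below the array medians on all arrays. ALDOC had a log2 change of -0.051 (95% confidence interval -0.24 to 0.14, adjusted p = 0.843) with overlapping groups.

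**Figure D2:**
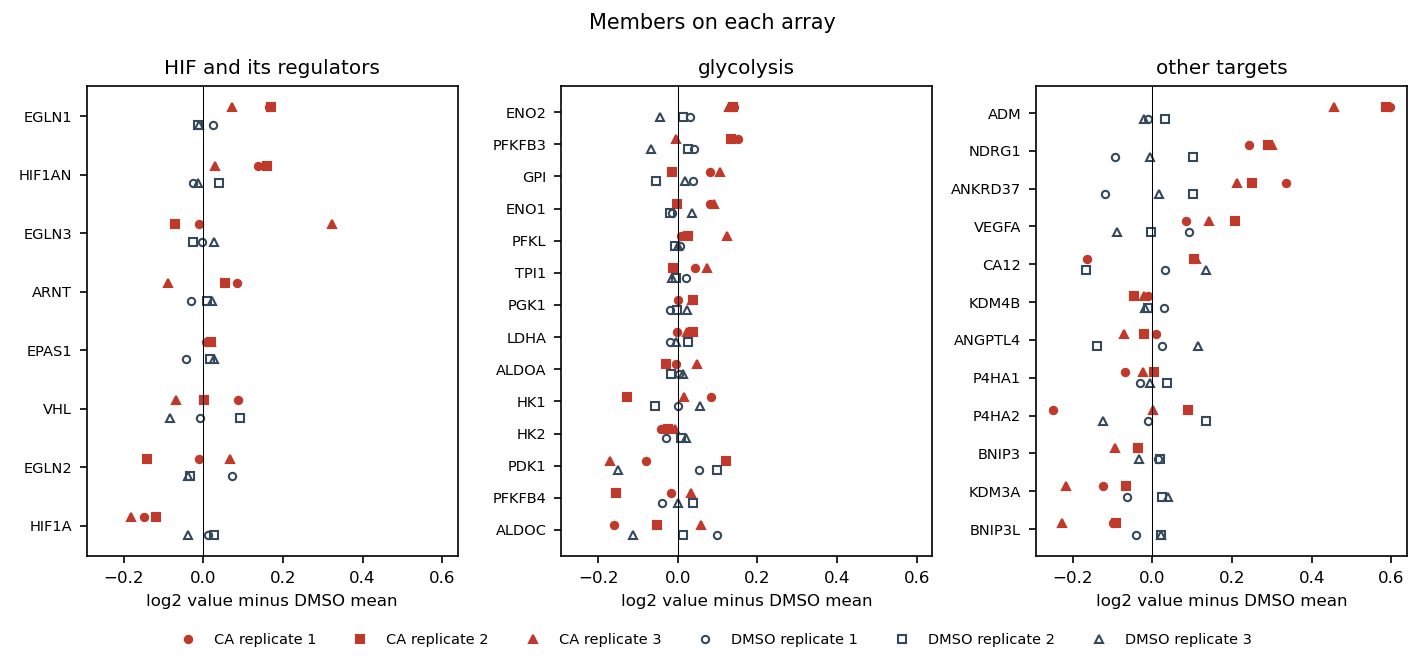
Log2 value of each member on each array minus the mean of its DMSO arrays, for the 3 CA arrays (filled red, upper of each pair of rows) and the 3 DMSO arrays (open, lower). The glycolysis genes cluster around 0 on most arrays, while ADM, NDRG1 and ANKRD37 lie to the right on all 3 CA arrays.

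Other targets held the largest changes in both directions apart from HIF1A. ADM encodes adrenomedullin, a secreted peptide that widens blood vessels and a well-known HIF target. It had log2 values of 8.33, 8.32 and 8.19 on the CA arrays, against 7.73, 7.77 and 7.72 on the DMSO arrays. Each CA array was above each DMSO array by more than the range within either group. ADM averaged 8.28 ± 0.079 in CA and 7.74 ± 0.028 in DMSO (SD, n = 3 each), and it rose 1.46-fold (95% confidence interval 1.34 to 1.60, limma adjusted p = 0.0156). The call was lost, with adjusted p-values of 0.0780 to 0.120, when any array but CA replicate 3 was left out, with log2 changes of 0.52 to 0.56. Without CA replicate 3 the log2 change was 0.59 and the adjusted p 0.0211. With the replicate number as a block the adjusted p was 0.0756. ADM has a single probe set on the array.

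NDRG1 and ANKRD37 were also above DMSO on all 3 CA arrays, without passing. NDRG1, a stress-induced gene of the hypoxia response, had log2 values of 8.30, 8.35 and 8.36 on the CA arrays, against 7.97, 8.16 and 8.06 on the DMSO arrays. The groups did not overlap, and the log2 change was 0.28 (95% confidence interval 0.13 to 0.42, adjusted p = 0.143). It passed with an intensity trend and a robust spread (limma adjusted p = 0.0212) and with dim genes left out (0.0332). ANKRD37, an ankyrin repeat gene known to be induced through HIF1A, had log2 values of 7.75, 7.67 and 7.63 on the CA arrays, against 7.30, 7.52 and 7.43 on the DMSO arrays. Its groups did not overlap, with a log2 change of 0.27 (95% confidence interval 0.098 to 0.43, adjusted p = 0.218) at the probe set used. The second ANKRD37 probe set, a dimmer one, had the opposite sign with a log2 change of -0.22, also without overlap of the groups. The mean of both was therefore 0.021.

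VEGFA, the growth factor for blood vessels, had log2 values of 9.62, 9.74 and 9.67 on the CA arrays, against 9.62, 9.53 and 9.44 on the DMSO arrays. The lowest CA array was just below the highest DMSO array, and the log2 change was 0.15 (95% confidence interval -0.0058 to 0.30, adjusted p = 0.447). Its other probe sets gave -0.047, -0.036 and 0.29, the last with groups that did not overlap (adjusted p = 0.312 over all 54613 probe sets).

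The mitochondrial and chromatin targets had negative log2 changes, none past the threshold. BNIP3L, a receptor that tags mitochondria for autophagy, had log2 values of 8.79, 8.80 and 8.66 on the CA arrays, against 8.85, 8.91 and 8.91 on the DMSO arrays. The groups did not overlap at this probe set, with a change of -0.14 (95% confidence interval -0.27 to -0.0089, adjusted p = 0.407), but the second probe set gave 0.065, also without overlap and in the opposite direction. BNIP3, its close relative, had log2 values of 10.43, 10.43 and 10.37 on the CA arrays, against 10.48, 10.48 and 10.43 on the DMSO arrays. CA was again below DMSO on every array, though the nearest arrays of the groups differ by less than the last printed digit; its log2 change was -0.056 (95% confidence interval -0.16 to 0.049, adjusted p = 0.673), or -0.036 without CA replicate 3, and the second probe set gave 0.0013. KDM3A, a histone lysine demethylase induced by HIF1A, had log2 values of 9.32, 9.38 and 9.23 on the CA arrays, against 9.38, 9.47 and 9.48 on the DMSO arrays. Its nearest arrays were likewise that close, with a log2 change of -0.14 (95% confidence interval -0.27 to 0.0027, adjusted p = 0.439). KDM4B, another such demethylase, had a change of -0.026 (95% confidence interval -0.13 to 0.074, adjusted p = 0.850).

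The remaining targets did not separate the groups. P4HA1 and P4HA2 encode catalytic subunits of collagen prolyl hydroxylase; their log2 changes were -0.028 (95% confidence interval -0.14 to 0.080, adjusted p = 0.849) and -0.053 (95% confidence interval -0.31 to 0.20, adjusted p = 0.889). The lipoprotein lipase inhibitor ANGPTL4 had -0.028 (95% confidence interval -0.20 to 0.15, adjusted p = 0.917), and the carbonic anhydrase CA12 had 0.017 (95% confidence interval -0.24 to 0.27, adjusted p = 0.969). P4HA2 and ANGPTL4 were below the array medians on all arrays, and CA12 on 4 of 6. Of the 13 listed targets, 12 were measured; 1 passed upward (8.33%) and 0 downward, beside 0.892% of all probe sets. The groups did not overlap for 6 of the 12, 3 with CA above and 3 with CA below, beside 19.4% of all (11.9% and 7.49%), and the median log2 change was -0.027.

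**Figure D3:**
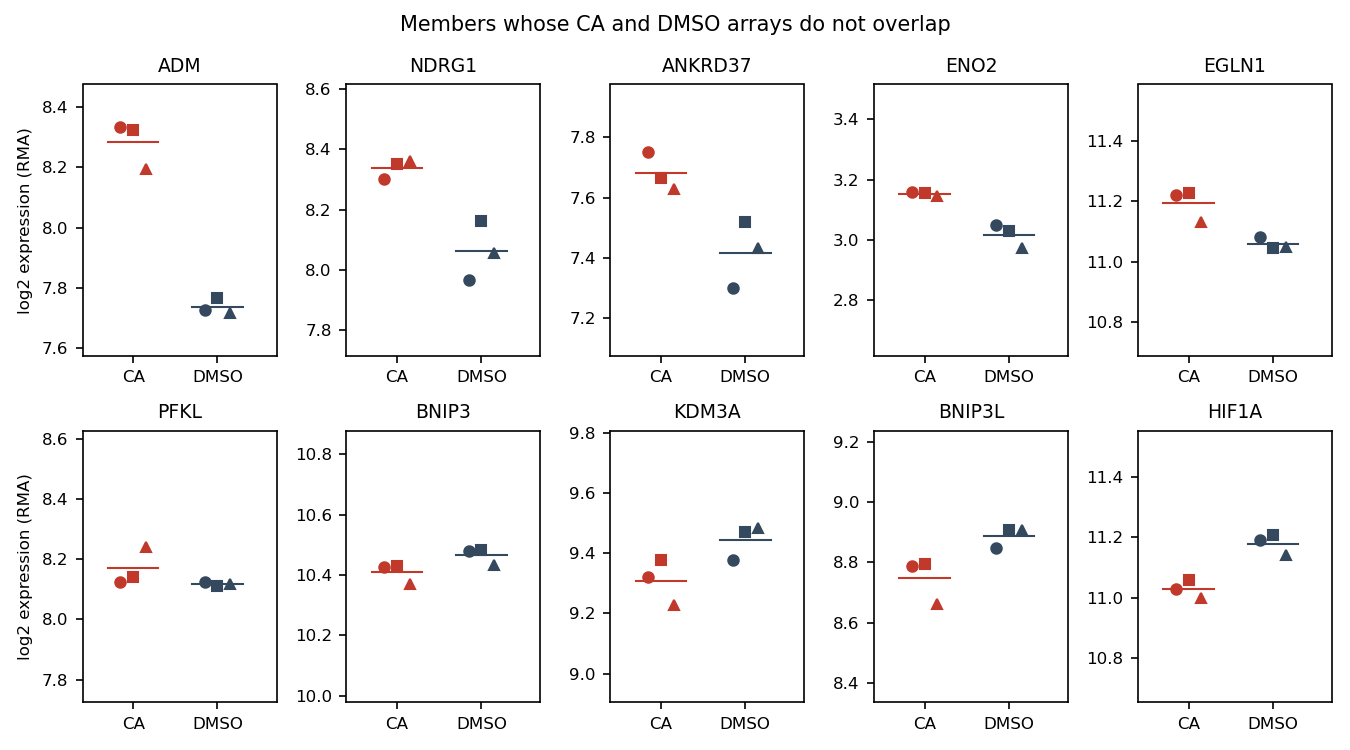
Log2 expression of the 10 members whose groups do not overlap, on the 3 CA arrays (red, left) and the 3 DMSO arrays (dark, right); lines are means, symbols mark the replicate number, and every panel spans the same log2 range. ADM has the widest gap, while PFKL, BNIP3 and KDM3A are separated by little.

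The median log2 change of a subgroup was set beside its values on single arrays. For glycolysis, the median distance from the DMSO mean was 0.0050, -0.0067 and 0.043 on the 3 CA arrays, against 0.0044, 0.0037 and 0.00024 on the 3 DMSO arrays. Over all probe sets the CA arrays had -0.0016, 0.0027 and 0.023, so CA replicate 3 was the highest in both. Without that array the median log2 change of the glycolysis genes was 0.017. The HIF genes and regulators had 0.046, 0.012 and 0.024 on the CA arrays, and the other targets -0.024, 0.047 and -0.0092. All of these are smaller than the log2 change of ADM, but a median over genes is not comparable with the most raised single member.

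Probe sets of one gene were compared because the rule uses a single one. The 34 members had 93 probe sets, and 25 members had more than 1. In the fit over all 54613 probe sets, 1 of the 93 passed, that of ADM, beside 0.22% of all. Of the 59 probe sets not used, 28 had the sign of the one used. For EGLN1 the others gave log2 changes of 0.18, 0.10 and, at the dimmest, -0.066 beside 0.14, and for EPAS1 0.10 and 0.010 beside 0.016. For ANKRD37, BNIP3L and KDM3A the second probe set had the opposite sign. HIF1A, ADM, NDRG1 and LDHA had no second probe set.

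**Figure D4:**
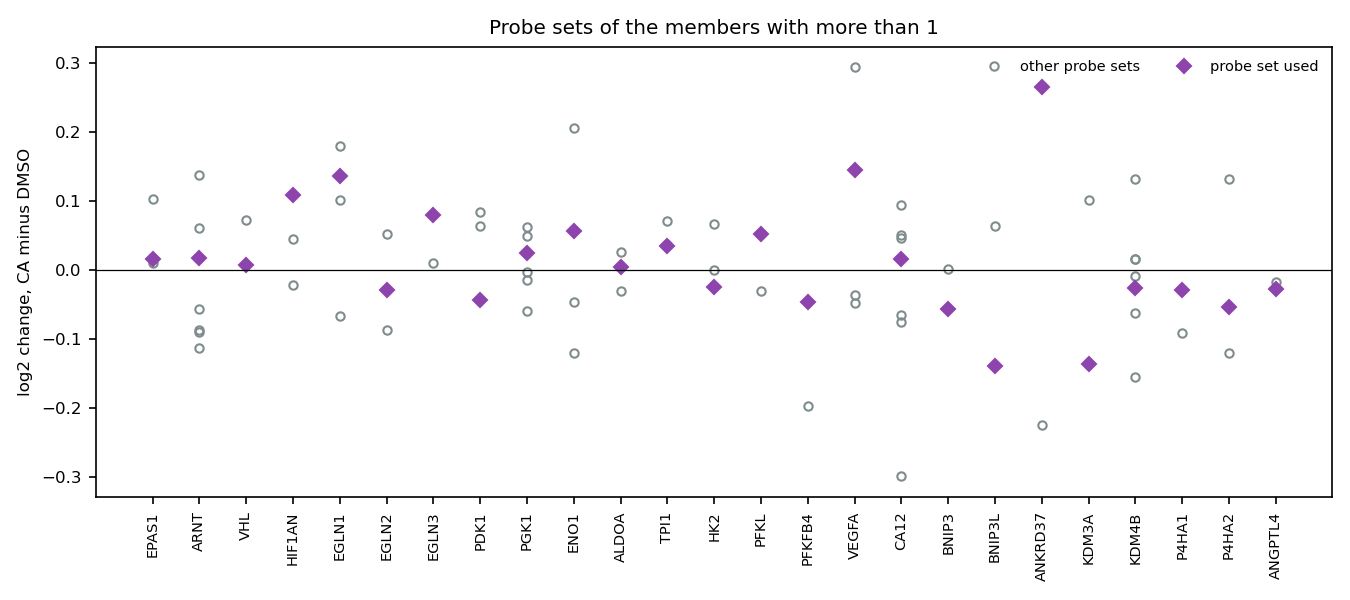
Log2 change, CA minus DMSO, at each probe set of the 25 members that have more than 1; diamonds are the probe sets used and open circles the others. The others of a gene often lie across 0 from the one used, as for ANKRD37 with 0.27 and -0.22.

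Coactivators and the kinase targets of CA act where HIF meets the transcription machinery. None of 11 genes in this list passed, beside 0.892% of all probe sets, and their median log2 change was -0.057. EP300, the acetyltransferase that binds the alpha subunit, had log2 values of 9.05, 9.01 and 8.60 on the CA arrays, against 9.17, 9.23 and 9.11 on the DMSO arrays. CA was below DMSO on every array, with CA replicate 3 the lowest, and the log2 change was -0.28 (95% confidence interval -0.58 to 0.0097, adjusted p = 0.444). A second EP300 probe set gave -0.34 (limma adjusted p = 0.456 over all 54613 probe sets). Its relative CREBBP had a change of -0.19 (95% confidence interval -0.43 to 0.057, adjusted p = 0.544), while its 3 other probe sets lay between -0.032 and -0.0080. Without CA replicate 3 the log2 change was -0.14 for EP300 and -0.074 for CREBBP. The nuclear receptor coactivator NCOA1, with the smallest p in the list, had -0.18 (95% confidence interval -0.37 to 0.0035, adjusted p = 0.439), or -0.12 without CA replicate 3. For the kinases, CDK8 had -0.14 (95% confidence interval -0.30 to 0.020, adjusted p = 0.486), or -0.080 without CA replicate 3, with -0.084 and -0.075 at its other probe sets. CDK19 had -0.017 (95% confidence interval -0.12 to 0.083, adjusted p = 0.911) at the probe set used, while its 3 dimmer probe sets lay between -0.19 and -0.14.

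Genes that dispose of HIF or oppose it gave no call among 13 measured, beside 0.892% of all probe sets, with a median log2 change of -0.034. Their smallest p-values were those of CITED2, a competitor for EP300 that is itself a HIF target, at 0.14 (95% confidence interval -0.023 to 0.31, adjusted p = 0.492), and of CUL2, the scaffold of the VHL ligase, at -0.085 (95% confidence interval -0.19 to 0.022, adjusted p = 0.528). The remaining glycolysis, glucose and lactate genes also had 0 of 22 past the threshold, beside the same 0.892%, and a median of 0.030. HK3, the hexokinase of myeloid cells, had log2 values of 5.45, 5.55 and 5.50 on the CA arrays, against 5.05, 5.23 and 5.34 on the DMSO arrays. Its groups did not overlap, with a log2 change of 0.29 (95% confidence interval 0.096 to 0.48, adjusted p = 0.247), and its values were below the array medians. TIGAR, a phosphatase that lowers glycolytic flux, had 0.18 (95% confidence interval 0.028 to 0.33, adjusted p = 0.357), also without overlap. The glucose transporters SLC2A1 and SLC2A3 had log2 changes of 0.089 and 0.10.

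Among 31 further HIF targets, 4 rose and 0 fell, which is 12.9% beside 0.892% of all probe sets. BHLHE40, a transcriptional repressor that hypoxia induces, had log2 values of 9.60, 9.61 and 9.47 on the CA arrays, against 8.45, 8.39 and 8.32 on the DMSO arrays and rose 2.26-fold (95% confidence interval 2.04 to 2.50, limma adjusted p = 0.00443). Its second, dimmer probe set gave a log2 change of 0.35 (limma adjusted p = 0.505 over all 54613 probe sets), against 1.18 at the one used. CXCR4, a chemokine receptor of blood cells, had log2 values of 12.09, 12.08 and 11.93 on the CA arrays, against 11.62, 11.60 and 11.55 on the DMSO arrays and rose 1.36-fold (95% confidence interval 1.23 to 1.50, limma adjusted p = 0.0308), a log2 change of 0.45, with 0.66 and 0.57 at its other probe sets. VLDLR, a lipoprotein receptor, had log2 values of 8.51, 8.59 and 8.46 on the CA arrays, against 8.02, 8.16 and 7.95 on the DMSO arrays and rose 1.39-fold (95% confidence interval 1.24 to 1.55, limma adjusted p = 0.0398). DDIT4, an inhibitor of mTOR signalling that stress induces, had log2 values of 12.51, 12.50 and 12.47 on the CA arrays, against 12.17, 12.17 and 12.21 on the DMSO arrays and rose 1.24-fold (95% confidence interval 1.16 to 1.33, limma adjusted p = 0.0308). In all 4 the groups did not overlap. Without CA replicate 3, BHLHE40 and CXCR4 passed, with limma adjusted p-values of 0.00859 and 0.0319, and VLDLR and DDIT4 did not (0.0796 and 0.0628). Leaving out any other array left at most 1 of the 4 past the threshold. The list has a median log2 change of -0.0074, with 14 genes above 0 and 17 below. STC2, a secreted glycoprotein, had a change of 0.45 (95% confidence interval 0.24 to 0.65, adjusted p = 0.106) without overlap. HMOX1, which breaks down haem, had CA below DMSO without overlap, at -0.17 (95% confidence interval -0.29 to -0.040, adjusted p = 0.309). The list was drawn up with earlier results of these arrays known, so its count is a description.

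**Figure D5:**
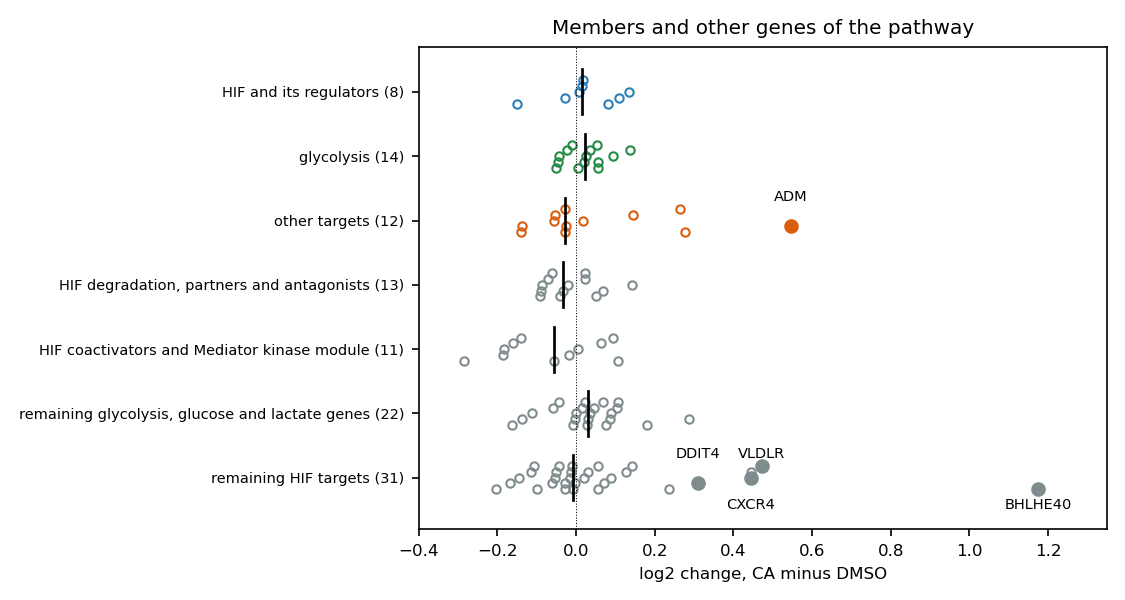
Log2 change, CA minus DMSO, of the measured genes in the 3 groups of members (coloured) and in the 4 further lists of the pathway (grey), with the number of genes in brackets and a vertical bar at each median. Filled points passed at an adjusted p under 0.05; the medians lie between -0.057 and 0.030.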

How the data were processed

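Expression was deposited by the authors as a single table of log2 values, with RMA and affy named as tools per the submitters' processing notes; their versions and a genome build do not appear in the sources used here. Per the labels' protocols, 100 ng of total RNA was primed near its 3′ end; either RNeasy Plus Micro or TRIzol had been used to isolate it, and the assignment to samples was not stated there. RMA quantile normalises arrays, so a shift shared by all genes is lost and dim differences are compressed. Values were used unchanged.

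Of 54675 probe sets, 62 controls were left out. Of the remaining 54613, the platform annotation gave 41091 a single symbol, 1801 several and 11721 none. Each of 21357 symbols took its brightest probe set by mean log2 value, also one listing several genes (EGLN2), and each probe set entered once, leaving 20293. Symbols of the 34 measured members were current in GRCh38.p14. Titles gave the groups.

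The test of CA against DMSO was limma 3.58.1 (R 4.3.3, lmFit and eBayes, two-sided, Benjamini-Hochberg over all 20293), with calls at an adjusted p under 0.05 and 95% confidence intervals. An exact permutation test of 3 against 3 cannot go below a two-sided p of 0.1. Other probe sets were read from a fit over all 54613. Steps were tested on simulated data. Named were all measured members, the calls or otherwise the 2 smallest p of each further list, and CDK8, CDK19, EP300 and CREBBP; SLC2A1, SLC2A3, STC2, HMOX1, FLT3 and LYZ were named after their values were seen. The members and lists were chosen with earlier results of these data known. Alternatives changed the probe set rule, spread model, array weights, replicate block, dim filter, scaling and arrays; those for the further lists were chosen after seeing the data.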

Additional observations from a re-analysis of the deposited data

How the results depend on the processing

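Only ADM passed among the members, with the same count of 1, when probe sets with several symbols were dropped, all probe sets of a gene were averaged, _x_at, _s_at and _a_at probe sets were dropped, all probe sets were fitted, arrays were weighted or arrays were centred. The count was 3 with an intensity trend and robust fit, 2 without dim genes and 0 with the replicate block (ADM adjusted p = 0.0756, limma). Leaving out 1 array gave 0 to 1, and ADM passed only without CA replicate 3 (adjusted p = 0.0211); the adjusted p was 0.0780 without CA replicate 1, 0.0850 without CA replicate 2, and 0.120, 0.0899 and 0.106 without DMSO replicates 1, 2 and 3. Over all genes the main 181 calls became 70 without _x_at, _s_at and _a_at probe sets, 120 with all probe sets, 567 (466 higher, 101 lower) with a trend and robust fit, 6 with the replicate block, 531 (448 higher, 83 lower) without dim genes, 113 with centred arrays, and 0 (without DMSO replicate 1) to 110 (without CA replicate 3) with an array left out. The 4 calls of the further lists became 0 without _x_at, _s_at and _a_at probe sets, 1 with all probe sets, 1 with the block, 1 with centred arrays, and 0 to 2 with an array left out. Of these 4 genes, only CXCR4 kept a value without _x_at, _s_at and _a_at probe sets (limma adjusted p = 0.0507). With all probe sets fitted, the CXCR4 probe set used did not pass (limma adjusted p = 0.0745), while its other probe sets did (0.0206 and 0.0226). The median log2 change of the HIF genes and regulators was 0.042 with averaged probe sets and 0.0017 to 0.039 with an array left out. Without _x_at, _s_at and _a_at probe sets it was 0.045 over 6 genes, as EGLN2 and EGLN3 had no value. Without those probe sets the median was -0.043 over the 9 glycolysis genes left and -0.0098 over the 23 members left. LDHA, ALDOA, GPI, PFKL and PFKFB3 had no value there, and ENO1 was read at a dim probe set (mean log2 3.88). These medians cover other genes and probe sets than the main ones, so the turned sign cannot be given to the same genes. The median of the other targets was -0.029 to 0.018 with an array left out. Signs turned with averaged probe sets for ARNT (-0.018), PDK1 (0.035), HK2 (0.014) and CA12 (-0.033), without _x_at, _s_at and _a_at probe sets for PGK1 (-0.058), ENO1 (-0.12) and KDM4B (0.016), and with array weights for ALDOA (-0.0062) and CA12 (-0.028). With an array left out, signs turned within the ranges -0.0056 to 0.029 for EPAS1, -0.017 to 0.071 for ARNT, -0.035 to 0.054 for VHL, -0.076 to 0.028 for EGLN2, -0.041 to 0.16 for EGLN3, -0.13 to 0.021 for PDK1, -0.017 to 0.022 for ALDOA, -0.11 to 0.0030 for ALDOC, -0.056 to 0.049 for HK1, -0.086 to 0.0078 for PFKFB4, -0.067 to 0.11 for CA12, -0.12 to 0.046 for P4HA2 and -0.097 to 0.029 for ANGPTL4. None of these members passed in any of these fits, and the causes were not tested. Whether the replicate numbers mark a pairing is not known. Deviations of CA and DMSO samples with the same number correlated at 0.0406, 0.224 and 0.25, and those with different numbers at -0.259 to 0.0923. CA replicates 2 and 3 correlated best with the DMSO replicate of their own number, and CA replicate 1 (0.0923) with DMSO replicate 2. Dim members (EGLN3, ENO2, P4HA2 and ANGPTL4) were below the array medians on all arrays, which limits what their changes show.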
